A study of Mus musculus with 6 samples.

Results

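The enzymes that break down leucine, isoleucine and valine, together with the genes that oxidise ketone bodies, were examined in the inguinal fat of old mice kept in the cold and given estrogen or vehicle. The members were 28 genes taken by symbol from the deposited count table, and all 28 were found, each in a single row, among 54532 genes. The filter on low counts passed 27 of them. Bdh1, with 1 to 36 counts per library, did not pass and was not tested.

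The series holds 6 RNA sequencing libraries of inguinal white adipose tissue, the subcutaneous fat of the groin. Of these, 3 came from vehicle-treated and 3 from estrogen-treated old mice. Both groups had been in the cold for 7 days, a stimulus that induces heat-producing beige adipocytes, so the comparison is of estrogen within cold exposure and old age. The labels used here give no strain, sex, age in months, genotype, dose or route, and do not say whether each library came from a separate animal. The p-values therefore measure the spread between these libraries, which may in part be technical. The series asks what estrogen does to beige fat in aged animals.

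Branched-chain amino acids first lose their amino group to a transaminase, Bcat1 in the cytosol or Bcat2 in mitochondria. The resulting keto acids are committed to oxidation by the branched-chain keto acid dehydrogenase complex (BCKDH), which the kinase Bckdk switches off and the phosphatase Ppm1k switches on. Separate arms then turn the leucine skeleton into acetyl-CoA and acetoacetate, and the valine and isoleucine skeletons into propionyl-CoA, which reaches the TCA cycle through cobalamin-dependent steps. Adipocytes use this carbon for lipid synthesis, and brown fat takes the amino acids into mitochondria through the carrier Slc25a44 for heat production. Ketone body use shares the last thiolase, Acat1, with the isoleucine arm.

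The promoters of 3 members are shown because these genes had the largest differences in either direction, Bcat1 lower and Bcat2 and Hsd17b10 higher with estrogen. Each window is the 250 bases before the RefSeq transcription start on GRCm38.p6, the same build as mm10, written 5′ to 3′ along the gene. Capitals mark a CCAAT box (CCAAT) or a GC box (GGGCGG), read on either strand.

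Bcat1, chr6:145076158-145076407, minus strand: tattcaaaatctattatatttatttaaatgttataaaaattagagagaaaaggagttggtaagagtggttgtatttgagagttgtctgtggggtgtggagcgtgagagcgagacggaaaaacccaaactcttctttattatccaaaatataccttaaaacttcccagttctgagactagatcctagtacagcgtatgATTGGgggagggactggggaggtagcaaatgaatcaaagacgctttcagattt
Bcat2, chr7:45569903-45570152, plus strand: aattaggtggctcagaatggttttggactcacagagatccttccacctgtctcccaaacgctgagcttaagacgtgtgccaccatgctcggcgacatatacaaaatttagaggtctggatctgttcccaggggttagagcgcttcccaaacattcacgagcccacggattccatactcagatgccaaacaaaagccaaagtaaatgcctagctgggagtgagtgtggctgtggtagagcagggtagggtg
Hsd17b10, chrX:152001646-152001895, plus strand: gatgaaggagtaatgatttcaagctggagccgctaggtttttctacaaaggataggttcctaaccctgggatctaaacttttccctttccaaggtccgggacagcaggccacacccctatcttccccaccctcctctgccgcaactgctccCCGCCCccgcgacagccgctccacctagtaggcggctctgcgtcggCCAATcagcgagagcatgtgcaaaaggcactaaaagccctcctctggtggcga

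The Bcat1 window holds 1 CCAAT box, 53 bases before the start on the opposite strand, and a GC content of 37.6%. The Bcat2 window holds neither motif, at 50.4% GC. The Hsd17b10 window holds a CCAAT box 53 bases and a GC box 99 bases before the start. RefSeq promoters were matched for 23 of the 28 members, with the start nearest to the deposited gene start taken. A CCAAT box was found in 14 of these 23 windows and in 36.1% of 11161 windows of tested genes, and a GC box in 13 of 23 and in 57.8%. The palindromic estrogen response element (GGTCA and TGACC separated by 3 bases) was found in 0 of 23 and in 0% of all windows, and the estrogen-related receptor element (TCAAGGTCA) in 0 of 23 and in 0.215%. An E-box (CACGTG) was found in Mccc2 alone among the members and in 8.31% of windows, and the core of the NRF1 site (GCATGCGC) in Pccb alone and in 4.28%. A direct repeat of AGGTCA with 1 base between the copies (0.0448% of windows) and an ATF4 element (TGATGNAAT, 0.43% of windows) were in 0 of 23. All motifs were searched on both strands, and the share of windows is over the tested genes that had a RefSeq promoter.

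Total counts lay between 16046601 and 20736771 per library, so that 3 counts equal 0.145 to 0.187 CPM (counts scaled to library size). The CPM values below are scaled by TMM, a correction for differences in composition between libraries. Adipocyte markers (8 of 8 detected in every library) summed to 19414 to 28475 CPM with vehicle and 28565 to 49233 CPM with estrogen, with the highest level of all 8 in estrogen replicate 3. Markers of other cells also differed. The 8 fibroblast and progenitor markers summed to 11938 to 33689 CPM with vehicle and 1221 to 8330 CPM with estrogen, and the 7 macrophage markers to 1963 to 2766 CPM against 468 to 1470 CPM. The 10 skeletal muscle markers summed to 8147 CPM in estrogen replicate 1 and to 3.30 to 72.02 CPM in the other 5 libraries, where Myh7 was at 0 in all 5. The 5 B cell markers summed to 132 and 89.0 CPM in estrogen replicates 1 and 3 and to 3.81 to 6.16 CPM elsewhere. The 5 T cell markers summed to 1.77 to 3.43 CPM with vehicle and 3.47 to 46.9 CPM with estrogen. The 5 neutrophil markers summed to 152.5 CPM in vehicle replicate 1 and to 23.3 to 34.8 CPM elsewhere, the 5 endothelial markers to 425 to 590 CPM with vehicle and 514 to 694 CPM with estrogen, and the 6 mammary epithelial markers to at most 1.24 CPM, with Krt5 and Krt14 at 0 in all 6 libraries. The 5 brown and beige markers were at 678 to 1592 CPM with vehicle and 1277, 3007 and 334 CPM with estrogen, in replicate order. Ucp1, the uncoupling protein of thermogenic fat, was at 10.2 CPM in estrogen replicate 3 and at 1754 CPM in estrogen replicate 2. In bulk tissue, fewer cells of a type and less RNA per cell cannot be told apart, and the part of these cell types in the results below was not tested except where a value is given.

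Levels of the members were compared with each other as CPM per kilobase of gene length. In vehicle, the most abundant members were Pccb, a subunit of propionyl-CoA carboxylase, at 91.9 ± 10.5 CPM per kilobase, and the thiolase Acat1 at 90.7 ± 11.5 (SD, n = 3 here and below), which did not differ beyond their spread. Aldh6a1, Hsd17b10 and Oxct1 followed at 69.1 ± 9.43, 65.1 ± 4.46 and 64.0 ± 8.62, again within their spread of each other. The BCKDH subunits Bckdhb, Bckdha and Dbt lay at 44.4 ± 5.28, 37.8 ± 4.95 and 30.1 ± 2.81. The kinase Bckdk was at 23.1 ± 1.61 and the phosphatase Ppm1k at 1.93 ± 0.432. Bcat2 was at 46.8 ± 7.17 and Bcat1 at 2.51 ± 1.26, so the mitochondrial transaminase was the more abundant of the pair in all 6 libraries. Abat, a transaminase best known for GABA breakdown, was at 0.588 ± 0.165, and Bdh1, the mitochondrial hydroxybutyrate dehydrogenase, at 0.0391 ± 0.0344, the lowest of the 28. With estrogen, Hsd17b10 reached 129 ± 55.6 and Pccb 126 CPM per kilobase.

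**Figure D1:**
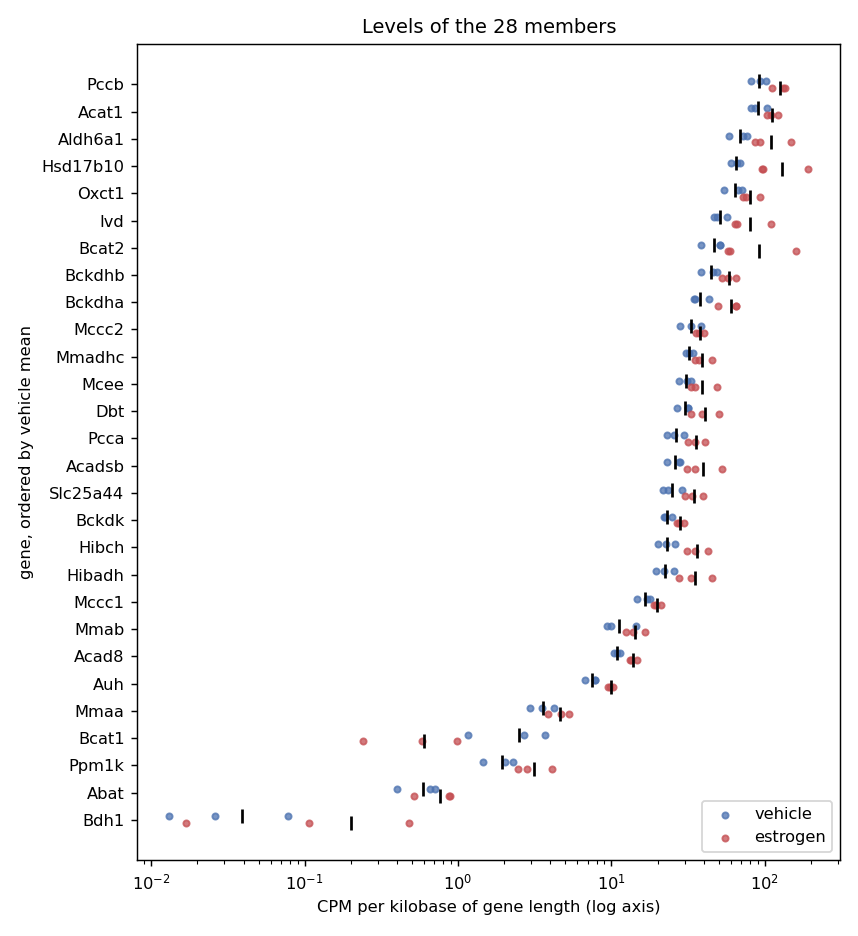
Level of each member in each library as CPM per kilobase of gene length on a log axis, with vehicle in blue, estrogen in red and black ticks at the group means (n = 3 each). The members span from about 0.0391 (Bdh1) to 91.9 (Pccb) in the vehicle means, and Bcat1 is the member whose estrogen libraries all lie to the left of the vehicle libraries.

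Estrogen libraries held higher levels of most of the pathway and a lower level of Bcat1. Of the 27 tested members, 26 had a positive and 1 a negative log2 fold change (estrogen over vehicle). Their median was 0.41, against 0.0025 over all 15591 tested genes, of which 50.3% were positive. The mitochondrial share of counts, at 8.72, 6.40 and 6.26% with vehicle and 9.08, 10.2 and 11.7% with estrogen, and the share of the 20 most abundant genes, at 20.9, 19.8 and 19% with vehicle and 23.9, 24.9 and 29.9% with estrogen, were also higher in every estrogen library, and their part in the members' difference was not tested. No single member passed the test (edgeR quasi-likelihood with Benjamini-Hochberg adjustment over all genes, smallest adjusted p = 0.207), where 0 of 15591 genes (0%) passed. At an unadjusted p under 0.05, 17 of 27 members were higher (9.49% of all tested genes) and 1 was lower (10.9%). All 3 estrogen libraries lay above all 3 vehicle libraries for 21 of 27 members (12.8% of all genes) and below them for 1 (14.7%). The TMM factors that divide the library sizes into these CPM values were 1.032, 1.041 and 1.113 with vehicle and 1.006, 0.953 and 0.873 with estrogen. This scaling raises the CPM of each estrogen library relative to each vehicle library, and its part in these counts was not tested.

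DESeq2 on the same counts called 3 members higher, Bckdha, Hibch and Hsd17b10 (2.31% of 15680 genes), and 1 lower, Bcat1 (2.86%). The number of members at an unadjusted p under 0.05 and higher depended on single libraries. It was 5 without vehicle replicate 2, 9 without vehicle replicate 3 or without estrogen replicate 3, and 11 without estrogen replicate 2, while without estrogen replicate 1, the library with muscle transcripts, it was 18. It was 14 without vehicle replicate 1. Over all tested genes, the same count was 1480 with all libraries and also varied. It was 1271, 647 and 1004 without vehicle replicates 1, 2 and 3, and 1455, 1536 and 1132 without estrogen replicates 1, 2 and 3. The members' median log2 fold change lay between 0.36 and 0.51 over the 6 fits that each left out a library.

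The transaminases differed in opposite directions. Bcat1 (ENSMUSG00000030268, chromosome 6, 144993835 to 145076184, mm10) was at 34.2, 25.2 and 10.8 CPM with vehicle and at 5.39, 9.17 and 2.23 CPM with estrogen, listed here and below in the order of the replicate numbers. The groups did not overlap, but vehicle replicate 3 and estrogen replicate 2 lay close together. Its log2 fold change was -2.06 ± 0.57 (SE), which is 4.17-fold lower (edgeR quasi-likelihood, adjusted p = 0.207; DESeq2 adjusted p = 0.0113). Leaving out single libraries gave -2.60 to -1.68. Its lowest library, estrogen replicate 3, was also the lowest in all 7 macrophage markers and all 8 fibroblast markers, and its 2 highest, vehicle replicates 1 and 2, had macrophage sums of 2297 and 2766 CPM, the highest of the 6; the part of these cells in the result was not tested.

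Bcat2 (ENSMUSG00000030826, chromosome 7, 45570153 to 45589711) was at 200, 150 and 198 CPM with vehicle and at 230, 223 and 628 CPM with estrogen. All estrogen libraries were above all vehicle libraries, and estrogen replicate 3 stood far above the rest. The log2 fold change was 0.98 ± 0.41 (adjusted p = 0.241, edgeR quasi-likelihood), and 0.31 without estrogen replicate 3. Within each library, Bcat2 per Bcat1, both per kilobase, was 14.0, 14.2 and 43.6 with vehicle and 102, 58.2 and 673 with estrogen. The groups did not overlap in this ratio, which was chosen after the values were seen. The exact permutation test on its log2 value gave p = 0.1, two-sided, the smallest that 3 against 3 libraries allow.

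**Figure D2:**
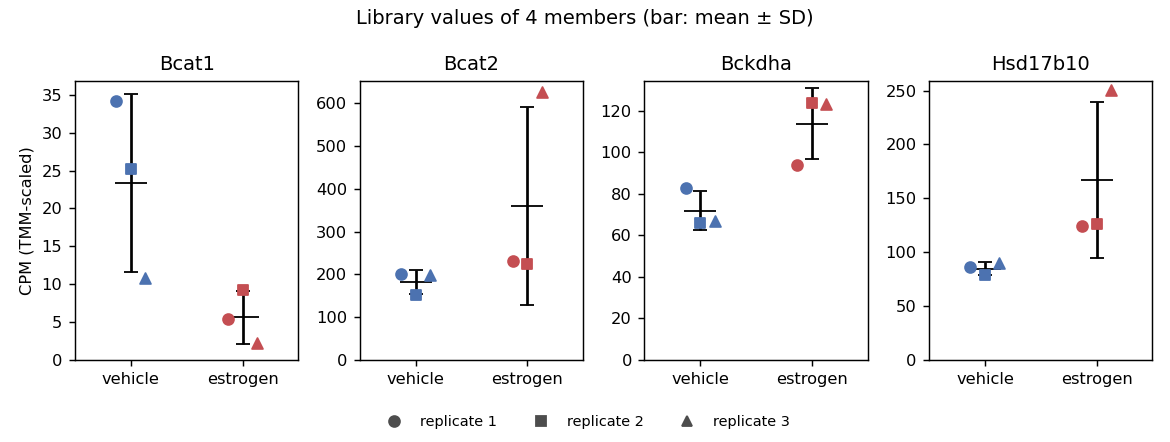
CPM of Bcat1, Bcat2, Bckdha and Hsd17b10 in each library (points, marked by replicate number; bars are mean ± SD, n = 3), with each axis starting at 0. Bcat1 lies at 10.8 to 34.2 CPM in vehicle and at 2.23 to 9.17 CPM in estrogen libraries, Bckdha lies higher in all 3 estrogen libraries, and estrogen replicate 3 sets the means of Bcat2 and Hsd17b10.

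Slc25a44, the carrier that takes branched-chain amino acids into mitochondria, was at 104, 77.8 and 84.0 CPM with vehicle and at 109, 141 and 120 CPM with estrogen. The groups did not overlap, and the highest level was in estrogen replicate 2. Its log2 fold change was 0.48 ± 0.16 (adjusted p = 0.208, edgeR quasi-likelihood).

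All 3 members of the BCKDH complex were higher with estrogen without overlap (12.8% of all genes). Bckdha, the E1 alpha subunit that carries the regulatory phosphorylation (ENSMUSG00000060376, chromosome 7, 25629946 to 25658981), was at 82.6, 65.8 and 66.9 CPM with vehicle and at 93.8, 124 and 123 CPM with estrogen. Its log2 fold change of 0.66 ± 0.16 (1.58-fold) had the smallest p of all members (edgeR quasi-likelihood, adjusted p = 0.207; DESeq2 adjusted p = 0.0272), and it stayed between 0.597 and 0.775 when single libraries were left out. Bckdha shares 1171 of its 1899 exonic bases with B3gnt8 on the other strand, a gene with 53 to 97 counts per library against 1301 to 1891 for Bckdha. The effect of this overlap on the Bckdha counts was not tested. Bckdhb, the E1 beta subunit, was at 88.0, 69.5 and 82.8 CPM against 94.8, 103 and 116 CPM (log2 fold change 0.39 ± 0.14). Dbt, the E2 core, was at 106, 89.8 and 106 CPM against 111, 131 and 169 CPM (0.44 ± 0.18), and at 0.26 without estrogen replicate 3. Within a library, Bckdha per Bckdhb (both per kilobase) was 0.892, 0.900 and 0.768 with vehicle and 0.941, 1.14 and 1.01 with estrogen. These groups did not overlap, and the exact permutation test gave p = 0.1, two-sided, the smallest that 3 against 3 libraries allow. Between Bckdha and Dbt the groups did overlap. Dbt per Bckdha was 0.801 ± 0.0874 with vehicle and 0.681 ± 0.0884 with estrogen (exact permutation p = 0.3). Bckdhb per Dbt was 1.47 ± 0.0540 against 1.45 ± 0.155 (exact permutation p = 0.9).

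Both arms of the switch on the complex were higher with estrogen. The kinase Bckdk, which inactivates the complex, was at 92.2, 82.6 and 81.3 CPM against 99.5, 110 and 102 CPM, a log2 fold change of 0.28 ± 0.12. The phosphatase Ppm1k, which activates it, was at 12.2, 8.75 and 13.8 CPM against 16.9, 14.9 and 24.5 CPM, a log2 fold change of 0.69 ± 0.25 (0.45 without estrogen replicate 3). Neither gene's groups overlapped. Neither passed the adjustment (edgeR quasi-likelihood, adjusted p = 0.235 and 0.212). Ppm1k per Bckdk, per kilobase, was 0.0815, 0.0650 and 0.104 with vehicle and 0.104, 0.0834 and 0.147 with estrogen, so that the groups overlapped in this ratio (exact permutation p = 0.3, two-sided).

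In the leucine arm, all 4 members had positive log2 fold changes, and each had its highest level in estrogen replicate 3. Ivd, the isovaleryl-CoA dehydrogenase of the first committed step, was at 271, 258 and 312 CPM with vehicle and at 352, 361 and 606 CPM with estrogen, a log2 fold change of 0.65 ± 0.24 (0.35 without estrogen replicate 3). The subunits of methylcrotonyl-CoA carboxylase, Mccc1 and Mccc2, were at 0.27 ± 0.13 and 0.19 ± 0.15, and the groups of Mccc2 overlapped (92.7, 78.6 and 108 against 100.3, 105 and 113 CPM). Without vehicle replicate 2, Mccc2 was at 0.08. Mccc1 per Mccc2, per kilobase, was 0.4995 ± 0.0329 with vehicle and 0.525 ± 0.00506 with estrogen. Auh, the methylglutaconyl-CoA hydratase, was at 75.2, 64.2 and 74.8 CPM against 91.3, 94.0 and 98.6 CPM. Its estrogen libraries were tightly grouped above all vehicle libraries, with a log2 fold change of 0.41 ± 0.12 (edgeR quasi-likelihood, adjusted p = 0.207).

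The isoleucine and valine arm had a median log2 fold change of 0.66 over its 7 members, and 6 of them had no overlap between the groups (12.8% of all genes). Hsd17b10, a mitochondrial dehydrogenase that acts in isoleucine breakdown, also oxidises estradiol and is a subunit of mitochondrial RNase P (ENSMUSG00000025260, chromosome X, 152001845 to 152004442). It was at 85.7, 78.2 and 89.5 CPM with vehicle and at 125, 126 and 250 CPM with estrogen. Its log2 fold change of 0.98 ± 0.28 was, with that of Bcat2, the largest positive one of the 27 (1.98-fold; edgeR quasi-likelihood, adjusted p = 0.207; DESeq2 adjusted p = 0.0295). Without estrogen replicate 3 it was 0.57, and the estrogen replicates 1 and 2 that then remained still lay above all vehicle libraries.

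Hibch, which releases hydroxyisobutyrate from its CoA ester, was at 158, 121 and 137 CPM with vehicle and at 188, 212 and 257 CPM with estrogen, a log2 fold change of 0.66 ± 0.17 (edgeR quasi-likelihood, adjusted p = 0.207; DESeq2 adjusted p = 0.0244), and 0.53 to 0.76 when single libraries were left out. Hibadh, which oxidises hydroxyisobutyrate, was at 259, 198 and 224 CPM against 280, 336 and 460 CPM (0.66 ± 0.21). Aldh6a1, the methylmalonate semialdehyde dehydrogenase, was at 416, 339 and 445 CPM against 543, 501 and 863 CPM (0.67 ± 0.24), and at 0.38 without estrogen replicate 3. Both were highest in estrogen replicate 3 and had no overlap.

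The acyl-CoA dehydrogenases of this arm were Acadsb, for isoleucine, and Acad8, for valine. Acadsb was at 197, 166 and 201 CPM against 251, 222 and 376 CPM (0.59 ± 0.22, and 0.33 without estrogen replicate 3). Acad8 was at 47.2, 43.3 and 44.9 CPM against 54.7, 61.0 and 55.9 CPM. Its groups were narrow and apart, with a log2 fold change of 0.34 ± 0.10 (edgeR quasi-likelihood, adjusted p = 0.207). Abat, at 61 to 130 counts per library, had overlapping groups and a log2 fold change of 0.37 ± 0.33.

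Propionyl-CoA, the common product of valine and isoleucine, is carboxylated by Pcca and Pccb. Pcca was at 156, 121 and 134 CPM with vehicle and at 164, 213 and 182 CPM with estrogen (0.44 ± 0.16). Pccb was at 282, 224 and 258 CPM against 311, 363 and 373 CPM (0.46 ± 0.15). Neither pair of groups overlapped, neither gene passed the adjustment (edgeR quasi-likelihood, adjusted p = 0.212 and 0.207), and Pcca per Pccb, per kilobase, was 0.286 ± 0.00882 with vehicle and 0.284 ± 0.0269 with estrogen. Pcca shares 241 exonic bases with Ggact, which had 153 to 240 counts per library.

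The other propionate and cobalamin genes had smaller differences. The epimerase Mcee, the mutase chaperone Mmaa and the adenosyltransferase Mmab had log2 fold changes of 0.34 ± 0.17, 0.38 ± 0.18 and 0.34 ± 0.20, with overlapping groups. Without estrogen replicate 2, Mcee was at 0.15. Mmadhc, which routes cobalamin inside the cell, was at 68.6, 64.3 and 61.8 CPM against 70.4, 75.5 and 90.8 CPM (0.28 ± 0.13, and 0.17 without estrogen replicate 3). Its groups did not overlap, though the lowest estrogen and the highest vehicle library were close. In this branch, 4 of 6 members were highest in estrogen replicate 2 rather than replicate 3.

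The 2 tested ketone body genes had a median log2 fold change of 0.31. Oxct1, which activates acetoacetate for oxidation, was at 261, 201 and 249 CPM with vehicle and at 269, 279 and 343 CPM with estrogen (log2 fold change 0.32 ± 0.16, and 0.21 without estrogen replicate 3), and Acat1, the thiolase, at 390.0, 308 and 325 CPM against 390.5, 457 and 414 CPM (0.30 ± 0.15). In both genes the highest vehicle library, replicate 1, nearly met the lowest estrogen library, and neither reached an unadjusted p under 0.05 (edgeR quasi-likelihood, adjusted p = 0.296 and 0.287). Bdh1 had 1, 2 and 7 counts with vehicle and 36, 1 and 6 counts with estrogen. Its 36 counts were in estrogen replicate 1, the library with the muscle transcripts, and a difference between the groups was not detectable at this depth.

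**Figure D3:**
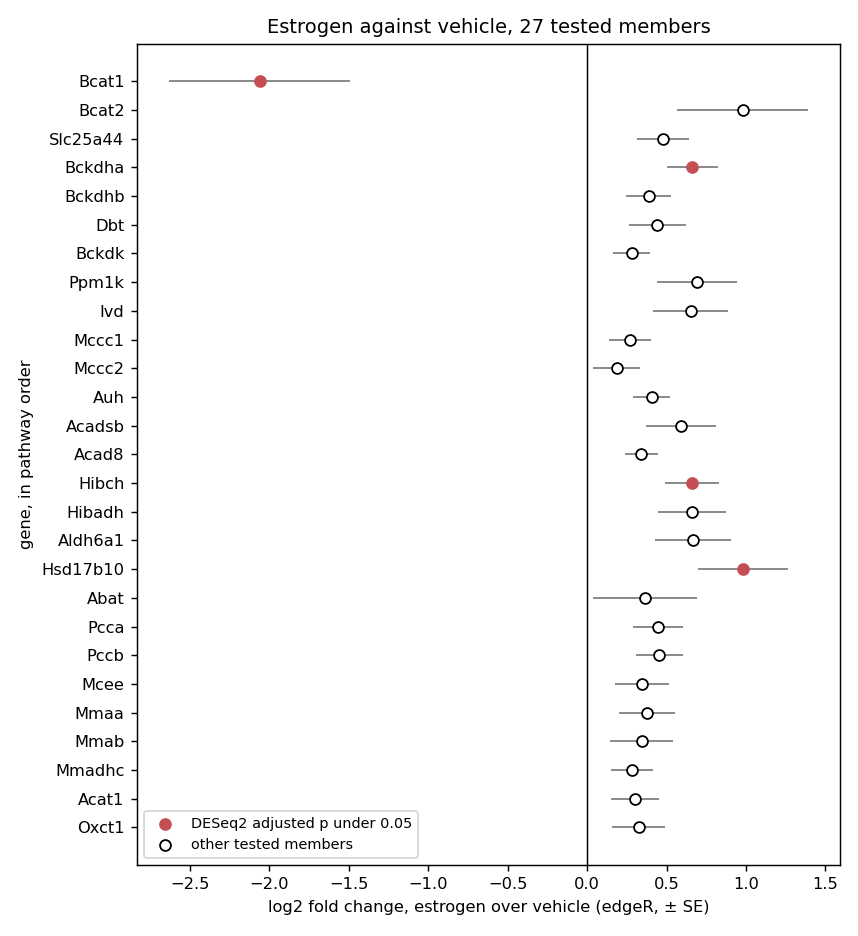
Log2 fold change of each tested member (estrogen over vehicle, edgeR, bars are ± SE) in pathway order, with filled points for members called by DESeq2. Bcat1 stands alone at -2.06, the other 26 lie between 0.19 and 0.98, and the 4 filled points are Bcat1, Bckdha, Hibch and Hsd17b10.

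Other enzymes that the branched-chain pathway shares with fatty acid oxidation were also higher. Of 14 on the list, 12 were tested and all 12 had positive log2 fold changes (50.3% of all tested genes), with a median of 0.41. At an unadjusted p under 0.05, 4 were higher (9.49% of all tested genes) and 0 lower (10.9%). Neither edgeR with adjustment nor DESeq2 called any. The 4 became 0 without vehicle replicate 2 and 1 without vehicle replicate 3 or estrogen replicate 2. Mut, the cobalamin-dependent mutase that follows Mcee, was at 148, 129 and 149 CPM against 181, 182 and 234 CPM (0.48 ± 0.15). Dld, the E3 subunit that BCKDH shares with other dehydrogenases, had a log2 fold change of 0.53 ± 0.19, and Mmachc, a cobalamin-processing gene, 0.40 ± 0.14.

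Genes of amino acid uptake and its regulation were mixed, with 5 of 9 tested members positive, a median of 0.02, and at an unadjusted p under 0.05 1 higher (9.49% of all genes) and 3 lower (10.9%). The 1 higher became 0 in 4 of the 6 fits that left out a library and by limma-voom. Slc7a8, a light chain of neutral amino acid exchange, was at 48.3, 35.3 and 32.3 CPM with vehicle and at 18.7, 23.3 and 15.0 CPM with estrogen. These groups lay apart, with a log2 fold change of -1.02 ± 0.21 (edgeR quasi-likelihood, adjusted p = 0.207), and it was the 1 member of the list that DESeq2 called (adjusted p = 0.0102). Slc7a5, the main leucine exchanger of growing cells, was at 12.2, 8.04 and 6.81 CPM against 4.77, 5.30 and 3.62 CPM (-0.98 ± 0.29), also without overlap. Their shared heavy chain Slc3a2 was at 0.15 ± 0.17. Klf15, a transcription factor known to induce branched-chain catabolic enzymes, was at 59.6, 46.0 and 83.1 CPM against 71.2, 64.7 and 177 CPM, with overlapping groups and its highest level in estrogen replicate 3 (0.73 ± 0.42).

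The remaining ketone genes had a median log2 fold change of -0.08 over 11 tested, of which 4 were positive and 7 negative. At an unadjusted p under 0.05, 2 were higher (9.49% of all tested genes) and 2 lower (10.9%). Higher were the cytosolic genes Aacs, which turns acetoacetate into a lipid precursor, at 431, 338 and 226 CPM against 460, 648 and 716 CPM (0.87 ± 0.27), and Acat2, a cytosolic thiolase, at 145, 106 and 97.6 CPM against 163, 235 and 251 CPM (0.90 ± 0.22). Both were called by DESeq2 (adjusted p = 0.0440 and 0.0173) and neither by edgeR with adjustment. Slc16a1, a monocarboxylate and ketone carrier, was at 129 to 180 CPM with vehicle and 133, 222 and 46.0 CPM with estrogen, and had a log2 fold change of -0.15 ± 0.49.

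Neighbouring mitochondrial pathways were set beside the members. The median log2 fold change was 0.50 for 16 TCA cycle genes (9 higher at an unadjusted p under 0.05), 0.62 for 11 pyruvate dehydrogenase genes (7 higher and 1 lower) and 0.47 for 18 genes of fatty acid oxidation (4 higher and 1 lower). Over all tested genes, 9.49% were higher and 10.9% lower at this threshold. Without vehicle replicate 2, the TCA count was 0 and the fatty acid oxidation count 1, and without vehicle replicate 3 or estrogen replicate 2 both were 1. Their members of smallest p were Suclg2 (0.48) and Sdha (0.60), Dlat (0.81) and Pdha1 (0.73), and Eci1 (0.52) and Cpt2 (0.54). Estrogen replicate 2, the library with the most Ucp1, was the highest of the 6 for 15 of 16 TCA genes and 15 of 18 fatty acid oxidation genes, and for 9 of the 27 members. The 11 pyruvate dehydrogenase genes had no leading library, with 4 highest in estrogen replicate 2 and 4 in estrogen replicate 3. Estrogen replicate 3, where Ucp1 was lowest and adipocyte markers highest, was the highest for 17 of the 27 members, among them 4 of 4 in the leucine arm and 6 of 7 in the isoleucine and valine arm. This contrast between the lists rests on 1 library each and was not tested. The fatty acid oxidation list holds Hadha, Hadhb, Hadh, Acads, Acadm and Echs1, which are also on the list of shared enzymes above, so those lists are not independent. The TCA cycle and pyruvate dehydrogenase lists have no gene in common with the shared enzymes.

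**Figure D4:**
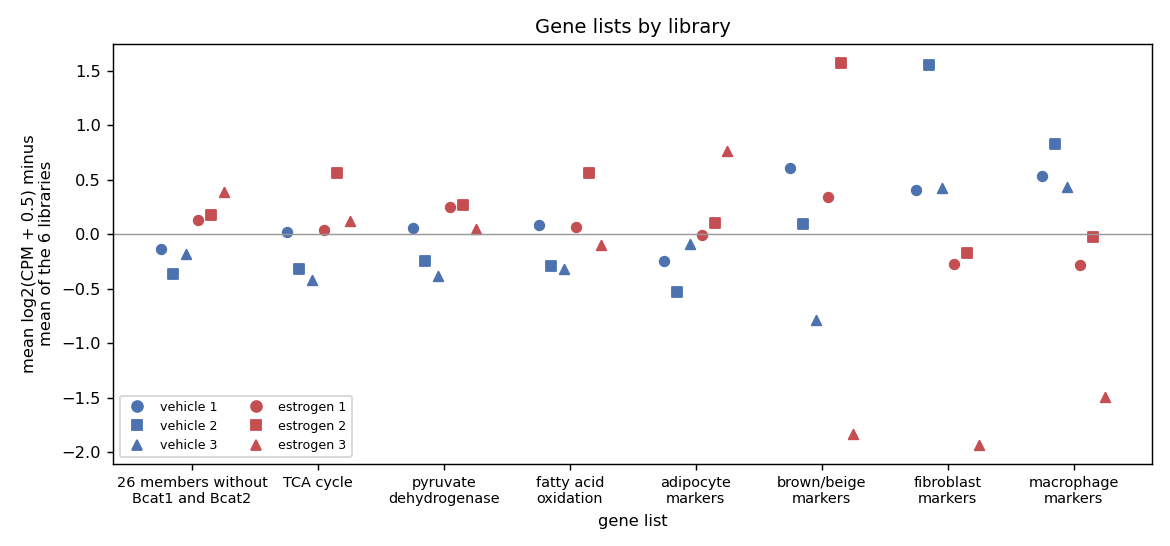
Mean deviation of each gene list from the mean of the 6 libraries, as log2(CPM + 0.5), with vehicle in blue and estrogen in red, marked by replicate. The 26 members without Bcat1 and Bcat2 run from -0.37 in vehicle replicate 2 to 0.39 in estrogen replicate 3, fatty acid oxidation is highest in estrogen replicate 2 at 0.56, and fibroblast and macrophage markers are lowest in estrogen replicate 3 at -1.93 and -1.49.

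The summed level of the 28 members was 3776, 3085 and 3590 CPM with vehicle and 4271, 4618 and 6115 CPM with estrogen. In the same libraries the adipocyte markers summed to 24757, 19414 and 28475 CPM and to 28565, 29688 and 49233 CPM. Both sums were lowest in vehicle replicate 2 and highest in estrogen replicate 3, and the part of adipocyte content in the members' difference was not tested. Of the 28 members, 9 share exonic bases with another annotated gene. The strand setting of the counting is not given in the sources used here, so reads of these genes could be misassigned or left uncounted. The neighbours' counts were at most 8.03% of the member's in any library, which does not measure how many reads were shared.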

How the data were processed

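Deposited values were raw counts, not normalized, for each gene in 6 libraries, with gene coordinates and lengths, per the file headers. Reads were aligned with HISAT2 and counted with featureCounts on mm10, per the submitters' processing notes; the sources used here do not give versions, strandedness or the annotation. The deposited length of all 28 members equalled the union of their exons in GENCODE M21.

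Groups and replicate numbers came from the sample titles, and table columns were matched to them through the sample descriptions. Counts were scaled by TMM, filtered with filterByExpr (15591 genes kept) and compared, estrogen over vehicle, with the quasi-likelihood test of edgeR, Benjamini-Hochberg adjusted across the whole table (threshold 0.05). Standard errors were taken from the F statistic. Alternatives were DESeq2 size factors, no filter, DESeq2, limma-voom, blocking on replicate number, and omission of single libraries. Software was DESeq2 1.42.0, limma 3.58.1 and edgeR 4.0.16 under R 4.3.3. The fits were tested on simulated data. All members were named, with per-library values for the 10 of smallest p and for a set of key steps, and of each further list fixed genes and the 2 of smallest p; some fixed genes are not reported here. Members and lists were chosen with earlier results of these data known, so they give no independent support. No pair of libraries of a group agreed within sampling noise (chi-square per degree of freedom 41.7 to 88.6).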

Additional observations from a re-analysis of the deposited data

How the results depend on the processing

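All 297 alternative values of the members' log2 fold changes (27 members, 11 alternatives) kept their sign, and 4 of them, all by DESeq2, passed the threshold that the main values did not (Bcat1, Bckdha, Hibch and Hsd17b10). By DESeq2, 362 genes were called higher and 449 lower over all genes, 3 members higher and 1 lower, 5 pyruvate dehydrogenase genes and 2 of the further ketone genes higher, against 0 each by edgeR; the cause was not tested. By DESeq2, 7 fatty acid oxidation genes were higher at an unadjusted p under 0.05, against 4. By limma-voom, 0 of the uptake genes were, against 1.

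Leaving out each library in turn gave 0 to 13 genes called higher over all genes, 647 to 1536 genes higher and 812 to 1784 lower at an unadjusted p under 0.05, and 5 to 18 members higher. The same counts were 0 to 6 for the shared branched-chain enzymes, 0 to 1 for uptake genes, 0 to 12 for the TCA cycle and 1 to 8 for fatty acid oxidation. The median log2 fold change was -0.26 to 0.10 for uptake genes and -0.15 to 0.0896 for the further ketone genes.

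Whether the replicate numbers pair the libraries is not stated. Same-numbered libraries deviated from their group means with r of -0.123, 0.163 and 0.289, which cannot decide it with 3 libraries per group. With the replicate number as a block, 0 genes were called. At an unadjusted p under 0.05, 15 members were higher, and 2 shared enzymes, 2 uptake genes, 3 TCA genes and 2 fatty acid oxidation genes. Over all genes, 1341 were higher in this fit. Counts were lowest for Bdh1 (1 to 36 per library), Bcat1 (32 in estrogen replicate 3) and Abat (61 to 130), where depth limits the precision most.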
